A study of Mus musculus with 18 samples.

Results

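Hepcidin and the iron-handling genes of the hepatocyte were followed across the 6 groups of a mouse liver study of the gene Mtdh. The members, chosen by gene symbol, were 10 of the 16873 genes in the table: Hamp, Id1, Smad6, Tmprss6, Hfe, Tfr2, Tfrc, Trf, Fth1 and Slc39a14. Hamp has a close paralog on the same chromosome, Hamp2, which was followed beside it. RNA was sequenced from hepatocytes of Mtdh knockout (KO) and age-matched wild-type (WT) mice. Their livers carried no tumor. Cells of each genotype had received TNFa, TGFb or conditioned medium (CM) taken from Kupffer cells that had themselves been treated with Py8119-EVPs. Each of these 6 groups holds 3 libraries, described as biological replicates, and no untreated group was analysed here. Doses, times, sex and the knockout allele, and whether Mtdh was removed in hepatocytes alone or in the whole animal, were not stated in the labels used here. Nor was it stated whether KO and WT mice share a strain background, so a strain difference and the knockout cannot be told apart in the genotype comparisons, those of Hamp and Hamp2 included.

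Hepcidin is a peptide hormone made by hepatocytes that binds the iron exporter ferroportin and causes its breakdown, so that less iron enters the blood. Its gene is switched on by bone morphogenetic proteins (BMPs) through SMAD proteins, with help from the iron sensors Hfe and Tfr2, and by interleukin 6 through STAT3. Hepatocytes also take up transferrin-bound iron through the transferrin receptor, take up free iron through Slc39a14, and store iron in ferritin.

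The upstream sequence of Hamp is shown because its 2 short elements belong to these arms, and that of Hamp2 because it differs in one of them. Both are the 250 bases before the RefSeq start on GRCm38.p6, on the minus strand, at chr7:30944030-30944279 for Hamp and chr7:30924182-30924431 for Hamp2. Capitals mark GGCGCC, the core of the BMP-responsive element, and TTCNNNGAA, the STAT motif, where N is any base. GGCGCC and TTCNNNGAA each read the same on both strands.
Hamp: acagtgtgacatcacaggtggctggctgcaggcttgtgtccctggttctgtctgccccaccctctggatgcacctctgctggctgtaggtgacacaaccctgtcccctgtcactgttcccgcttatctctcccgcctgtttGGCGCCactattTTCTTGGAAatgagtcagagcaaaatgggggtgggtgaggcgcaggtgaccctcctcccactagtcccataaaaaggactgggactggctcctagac
Hamp2: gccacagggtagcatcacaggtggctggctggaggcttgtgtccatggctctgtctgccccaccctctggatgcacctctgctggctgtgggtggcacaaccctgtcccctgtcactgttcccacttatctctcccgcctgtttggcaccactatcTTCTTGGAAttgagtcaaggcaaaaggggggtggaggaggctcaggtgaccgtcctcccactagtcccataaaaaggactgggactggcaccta
In Hamp, GGCGCC began 109 bases and TTCNNNGAA 97 bases upstream of the start. Hamp2 held TTCNNNGAA 94 bases upstream and no GGCGCC. The aligned bases of Hamp2 there were GGCACC, through the change G145A, counted from 1 at the 5′ end of the Hamp window. Of 32851 RefSeq mouse windows of this length, 9.59% held GGCGCC and 7.02% held TTCNNNGAA, so both motifs are frequent by letters alone. The aligned windows were the same in 227 of 253 columns (89.7%). The coding sequences were the same in 236 of 255 columns (92.5%), with the longest shared run at 80 bases. Whole transcripts were 88.8% the same, with a longest shared run of 87 bases. Reads that fall inside a shared run cannot be told apart, and read length was not examined here.

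Iron-responsive elements are RNA hairpins bound by iron regulatory proteins, which hold back ferritin translation and protect the transferrin receptor RNA when iron is low. They are shown for Fth1 and Tfrc because these members carry the element at opposite ends of the transcript. Each is 28 bases from the GENCODE M21 mouse transcripts, with capitals on the bulged C and the CAGTG of the loop.
Fth1, 5′ untranslated region: gtttcctgCttcaaCAGTGcttgaacgg
Tfrc, 3′ untranslated region: ataattatCggaagCAGTGccttccata
Tfrc, 3′ untranslated region: cacattatCgggagCAGTGtcttccata
Tfrc, 3′ untranslated region: gtctatatCggagaCAGTGatctccata
Tfrc, 3′ untranslated region: gtaattatCgggaaCAGTGtttcccata
The search was for C, any 5 bases, CAGTG and any 1 base on the sense strand with the 5 bases on each side of the loop able to pair in 5 of 5 positions. Tfrc had 4 such matches in its 3′ region, and of 21055 genes with a 3′ region only 1, Tfrc itself, had as many. At least 1 match was present in 118 of those genes (0.560%). In 5′ regions it was present in 21 of 20953 genes, among them Fth1. Hamp and Slc39a14 had no match in their 3′ regions.

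Mtdh, the targeted gene, read between 10063 and 13725 in the WT libraries and between 581 and 973 in the KO libraries, in deposited normalized units. KO means were 5.61% to 7.15% of WT means. Estimated depth was 19.4 to 35.6 M reads per library. The hepatocyte label was checked against 12 hepatocyte markers, whose summed value was 1607080 to 3253542 per library. The summed value of 18 Kupffer cell and macrophage markers was 5176 to 7441 in WT libraries and 9517 to 12916 in KO libraries. Of these 18 genes, 10, 12 and 11 were higher in KO with TNFa, TGFb and CM in turn, and 0 were lower. By the same limma test, described below, 7.89%, 12.2% and 9.39% of all genes tested were called in either direction. The defining genes Adgre1 and Clec4f were above 0 in each library, while Timd4 was at 0 in the 3 TGFb WT libraries and in CM WT 3. Of 15 sinusoidal endothelial markers, 5, 4 and 1 were higher in KO in that order, the count with CM being no more than the share of all genes. The sum of these 15 markers was 3235 to 4296 in WT and 4907 to 6752 in KO libraries. In bulk RNA, fewer cells of a type and less RNA per cell cannot be told apart.

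Hamp, which encodes hepcidin, was higher in KO than in WT hepatocytes under each of the 3 treatments, by 2.24-fold with TNFa, 2.26-fold with TGFb and 2.14-fold with CM as ratios of group means. It was also lower with TNFa than with TGFb or CM in both genotypes. Hamp2 was higher in KO by 3.85-fold, 4.98-fold and 3.57-fold in the same order. The remaining 9 members showed no shared KO change: Slc39a14, an iron and zinc importer, was lower in KO with TNFa and CM, Tfrc, the transferrin receptor, moved in opposite directions with TGFb and CM by small amounts, and 7 members passed the test in no KO comparison. Differences below are on the log2(value + 1) scale with their standard error (SE), from groups of 3 libraries. A gene is said to have risen or fallen where its limma p-value, adjusted by the Benjamini-Hochberg method over 14455 genes, was below 0.05. Groups whose libraries do not overlap are described, but this is not a call, and the share of all genes that separate so is not given.

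With TNFa, Hamp (mm39 chromosome 7, 30641793 to 30643457, minus strand) read 723, 650 and 613 in the WT libraries and 1317, 1437 and 1686 in the KO libraries. With TGFb it read 1602, 1589 and 1602 in WT and 3533, 3617 and 3694 in KO. With CM it read 1525, 1600 and 1645 in WT and 3277, 3215 and 3704 in KO. In each treatment the lowest KO library stood above the highest WT library. The groups fell into 3 levels: TNFa WT was lowest, TNFa KO overlapped TGFb WT and CM WT in the middle, and CM KO overlapped TGFb KO at the top. The KO difference was 1.16 ± 0.10 with TNFa (limma adjusted p = 2.39e-09), 1.18 ± 0.10 with TGFb (limma adjusted p = 6.88e-10) and 1.09 ± 0.10 with CM (limma adjusted p = 5.37e-09). The 3 KO differences spanned 0.08, and the test for a KO effect that differs between treatments did not pass for Hamp (limma adjusted p = 0.935). The interval of the difference between the TGFb and TNFa effects ran from -0.27 to 0.32, so a modest difference could not be seen with these libraries.

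Hamp2 (mm39 chromosome 7, 30621797 to 30624106, minus strand), the paralog, read 821, 586 and 598 in WT and 2615, 2637 and 2463 in KO with TNFa. With TGFb it read 992, 1177 and 864 in WT and 5246, 4721 and 5153 in KO. With CM it read 1181, 986 and 1106 in WT and 3909, 4229 and 3533 in KO. Again the WT and KO libraries did not overlap in any treatment. The KO difference of Hamp2 was 1.96 ± 0.12, 2.33 ± 0.12 and 1.83 ± 0.12 with TNFa, TGFb and CM (limma adjusted p = 2.5e-12, 2.12e-14 and 6.95e-12). The within-library ratio of the Hamp2 to the Hamp value shows how far the pair moved apart. It was 0.903 to 1.13 in WT and 1.46 to 1.99 in KO with TNFa, 0.540 to 0.741 and 1.31 to 1.48 with TGFb, and 0.616 to 0.774 and 0.954 to 1.32 with CM. Averaged over treatments, the log2 ratio was higher in KO by 0.90. An exact two-sided permutation of the genotype within treatments (9 KO and 9 WT libraries) gave p = 0.00025, the smallest that its 8000 arrangements allow. Because the KO and WT ratios did not overlap in any treatment, the test could only give this value. Within each treatment alone the permutation gave p = 0.1, the smallest that 20 arrangements allow. How reads shared by these similar genes were counted, split or discarded, was not stated in the labels, and its part in the ratio was not tested. With the values of Hamp and Hamp2 added, the KO difference was 1.61 ± 0.09, 1.73 ± 0.09 and 1.44 ± 0.09 (limma adjusted p = 1.76e-13, 1.09e-14 and 1.71e-12).

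**Figure D1:**
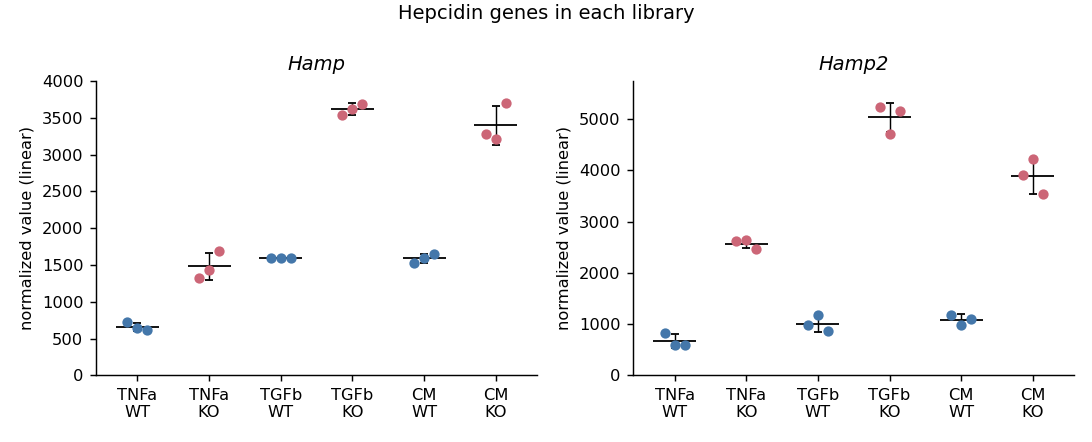
Deposited normalized values of Hamp and Hamp2 (linear axes from 0) in each of the 18 libraries, by treatment and genotype (blue WT, red KO). Points are libraries, horizontal bars group means and whiskers the SD of 3 libraries, and in each treatment the 3 KO points lie above the 3 WT points for both genes.

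The summed hepatocyte markers, a sum that is mostly albumin, were higher in KO with TGFb and CM. Their sum was 1607080 to 1688608 in KO against 1675280 to 1753318 in WT with TNFa, 3085907 to 3253542 against 2252438 to 2366242 with TGFb, and 2547883 to 2632908 against 1999623 to 2087022 with CM. Albumin (Alb) alone held 5.83% (TNFa KO 2) to 10.3% (TGFb KO 1) of all normalized signal in a library, and it passed in KO with no treatment. Of the 12 markers, 3 rose and 2 fell in KO with TNFa, 6 rose with TGFb and 5 with CM. Of all genes tested, 7.89%, 12.2% and 9.39% passed in that order. The part of the hepatocyte, macrophage and endothelial markers in the Hamp difference was not tested.

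The 5 genes whose 6 group means lay nearest to those of Hamp were Pbld1, Mat1a, Slc10a1, Gys2 and Gm4756. Nearness is the root mean square difference of centred log2 group means over the 6 groups, and it was 0.098 for Pbld1 and 0.125 for Gm4756 among 11009 genes. Mat1a makes S-adenosylmethionine, Slc10a1 takes up bile acids and Gys2 is the liver glycogen synthase. Hamp2 ranked 568 by this measure, at 0.524.

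Id1, a BMP target that blocks helix-loop-helix factors, and Smad6, an inhibitory SMAD that feeds back on the pathway, were the 2 members with low values. Id1 read 44.6, 13.7 and 40.6 in WT and 35.3, 52.2 and 65.4 in KO with TNFa, 124, 79.9 and 56.1 in WT and 155, 91.8 and 154 in KO with TGFb, and 73.4, 48.8 and 34.0 in WT and 56.4, 24.4 and 111 in KO with CM. WT and KO overlapped in each treatment. The KO differences of Id1 were 0.74, 0.65 and 0.11, each ± 0.54, and did not pass (limma adjusted p = 0.489, 0.521 and 0.943). The TNFa libraries of Id1 lay below the TGFb libraries in WT and in KO without overlap, yet the differences of -1.46 ± 0.54 and -1.38 ± 0.54 missed the threshold (limma adjusted p = 0.0742 and 0.0672).

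Smad6 read 9.08, 14.4 and 17.6 in WT and 6.01, 46.8 and 0 in KO with TNFa. With TGFb it read 100, 42.9 and 48.6 in WT and 39.0, 46.5 and 114 in KO. With CM it read 16.2, 2.93 and 2.19 in WT and 40.6, 21.5 and 59.9 in KO. With CM the 3 KO libraries stood above the 3 WT libraries, but the difference of 2.68 ± 0.94 missed the threshold (limma adjusted p = 0.0736). With CM relative to TGFb in WT, Smad6 fell by 3.33 ± 0.94 (limma adjusted p = 0.0175), a call lost without TGFb WT 1 (0.0891), CM WT 2 (0.07) or CM WT 3 (0.0732). With TNFa relative to TGFb in KO it fell by 3.11 ± 0.94 (limma adjusted p = 0.0154), and without TNFa KO 3, the library at 0, by 1.72 (limma adjusted p = 0.178). That call was also lost without TGFb KO 3 (0.0879) and when only the groups compared were fitted (0.0929).

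Tmprss6, the membrane protease that cleaves the BMP coreceptor hemojuvelin and so restrains hepcidin, passed in treatment comparisons and in no KO comparison. It read 2312, 2595 and 2226 in WT and 2183, 2005 and 2495 in KO with TNFa, 3523, 3634 and 3780 in WT and 4460, 3814 and 4981 in KO with TGFb, and 3358, 3655 and 3163 in WT and 3431, 3213 and 3441 in KO with CM. The KO libraries stood above the WT libraries with TGFb alone, where the difference of 0.27 ± 0.10 did not pass (limma adjusted p = 0.0839, 0.017 without TGFb KO 2). Tmprss6 fell with TNFa relative to TGFb by 0.62 ± 0.10 in WT and by 0.99 ± 0.10 in KO (limma adjusted p = 3.63e-05 and 5.94e-09). It rose with CM relative to TNFa by 0.51 ± 0.10 and 0.60 ± 0.10 (limma adjusted p = 0.00058 and 6.07e-05). In KO it also fell with CM relative to TGFb by 0.39 ± 0.10 (limma adjusted p = 0.0106), a call lost without TGFb KO 3 (0.0986) or CM KO 2 (0.0541), and with totals set equal (0.0851).

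Hfe, the major-histocompatibility-like protein that senses iron together with Tfr2, read 444, 398 and 294 in WT and 400, 381 and 451 in KO with TNFa, 398, 385 and 407 in WT and 577, 577 and 424 in KO with TGFb, and 455, 399 and 486 in WT and 602, 517 and 522 in KO with CM. The KO libraries were the higher ones with TGFb and CM, without overlap, and were mixed with WT under TNFa. Hfe passed no comparison, and its KO difference averaged over treatments was 0.27 ± 0.10 (limma adjusted p = 0.0545). Without TGFb KO 3, TNFa WT 1 or CM WT 3 that average passed, at limma adjusted p = 0.0218, 0.0309 and 0.0481.

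Tfr2, the receptor for iron-loaded transferrin that signals to hepcidin, read 1458, 1218 and 1556 in WT and 1350, 1141 and 1167 in KO with TNFa, 2170, 2431 and 1936 in WT and 2401, 2040 and 2667 in KO with TGFb, and 1497, 2275 and 1706 in WT and 1742, 1642 and 1504 in KO with CM. Genotypes overlapped in each treatment, and no KO comparison passed. In KO the TGFb libraries were the high ones, and in WT they overlapped the CM libraries. Tfr2 fell with TNFa relative to TGFb by 0.63 ± 0.13 in WT and by 0.95 ± 0.13 in KO (limma adjusted p = 0.00104 and 1.8e-06). In KO it also fell with CM relative to TGFb by 0.53 ± 0.13 (limma adjusted p = 0.00769), a call lost without TGFb KO 3 (0.0636) or CM KO 3 (0.0507). The KO rise with CM relative to TNFa, 0.42 ± 0.13 (limma adjusted p = 0.0337), was lost without TNFa KO 2 (0.121), TNFa KO 3 (0.105), CM KO 1 (0.139) or CM KO 2 (0.0924), and with totals set equal (0.186), no filter (0.0531) or quantile normalization (0.0514).

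Tfrc, the transferrin receptor that brings iron into cells and whose iron-responsive elements are printed above, was highest with CM in WT. It read 4224, 2979 and 3403 there and 2496, 2634 and 2791 in KO with CM. With TGFb it read 1549, 1697 and 1544 in WT and 1976, 2218 and 1974 in KO, and with TNFa 1746, 2396 and 1983 in WT and 1711, 2070 and 1566 in KO. The KO libraries thus lay below WT with CM, above WT with TGFb and across WT with TNFa. Tfrc fell in KO with CM by 0.41 ± 0.12 (limma adjusted p = 0.0313) and rose in KO with TGFb by 0.36 ± 0.12 (limma adjusted p = 0.0494). The CM call was lost without CM WT 1 (-0.27, 0.241), CM KO 1 (0.129) or CM KO 2 (0.0843), and when only the groups compared were fitted (0.0958). The TGFb call was lost without any of the 6 libraries compared, the adjusted p then lying between 0.0632 and 0.157, and under 5 other settings, such as totals set equal (0.169).

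The test of whether the KO effect differs between treatments passed for Tfrc (limma adjusted p = 0.033) but was lost without any of 11 of the 18 libraries. The effect with CM was 0.77 ± 0.17 below that with TGFb (limma adjusted p = 0.0367), and this too was lost when any of 10 libraries was left out. Treatment differences were larger. With CM, Tfrc rose in WT by 0.79 ± 0.12 relative to TNFa and by 1.13 ± 0.12 relative to TGFb (limma adjusted p = 3.05e-05 and 7.42e-08), and in KO by 0.57 ± 0.12 relative to TNFa (limma adjusted p = 0.00121).

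Slc39a14, also called ZIP14, imports iron that is not bound to transferrin. It read 6685, 6373 and 7287 in WT and 4736, 4768 and 4536 in KO with TNFa, and 12599, 12344 and 10961 in WT and 7733, 7668 and 6987 in KO with CM. With TGFb it read 7817, 8536 and 8315 in WT and 8797, 7784 and 8357 in KO. Genotypes were apart with TNFa and CM and overlapped with TGFb. Slc39a14 fell in KO with TNFa by 0.53 ± 0.08 and with CM by 0.68 ± 0.08 (limma adjusted p = 4.67e-05 and 7.38e-07), to 69.0% and 62.4% of the WT mean. With TGFb the difference was 0.01 ± 0.08, with an interval from -0.15 to 0.18.

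For Slc39a14 the KO effect differed between treatments (limma adjusted p = 0.00303), which Tfrc and Slc39a14 alone among the 10 members did, where 1.7% of genes tested passed (246 genes, and 111 to 518 when 1 library was left out). The effect with CM was 0.70 ± 0.12 below that with TGFb (limma adjusted p = 0.00324), a contrast that 0.491% of genes passed. The effect with TGFb was 0.55 ± 0.12 above that with TNFa (limma adjusted p = 0.0147), where 1.1% of genes passed, a call lost without TNFa WT 3 (0.0582), TGFb WT 1 (0.0577) or TGFb KO 1 (0.0554), or with totals set equal (0.0633). For CM minus TNFa, where 0.63% of genes passed the limma test of the difference, 0 of 10 members did. Before adjustment 1 member, Smad6, was under the threshold of 0.05, and its adjusted p from limma was 0.202. In WT, Slc39a14 rose with CM relative to TNFa by 0.82 ± 0.08 and relative to TGFb by 0.54 ± 0.08 (limma adjusted p = 3.26e-08 and 2.4e-05). In KO, CM and TGFb libraries lay close, at -0.16 ± 0.08 (limma adjusted p = 0.262), while TNFa libraries were lower than TGFb libraries by a difference of -0.83 ± 0.08 (limma adjusted p = 3.6e-09).

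Trf encodes transferrin, the iron carrier of plasma and a major hepatocyte product. It read 268073 to 293438 in WT and 220536 to 244986 in KO with TNFa, 385846 to 416322 in WT and 353237 to 408269 in KO with TGFb, and 346917 to 355272 in WT and 360381 to 383805 in KO with CM. TNFa libraries were the low ones in both genotypes. The KO libraries lay below WT with TNFa and above WT with CM, without overlap, yet no KO comparison of Trf passed. Trf fell with TNFa relative to TGFb by 0.53 ± 0.12 in WT and by 0.72 ± 0.12 in KO (limma adjusted p = 0.00293 and 3.75e-05). Both calls were lost after quantile normalization, with differences of -0.23 and -0.20 (limma adjusted p = 0.345 and 0.332). In KO, Trf rose with CM relative to TNFa by 0.67 ± 0.12 (limma adjusted p = 0.000223, 0.0503 after quantile normalization).

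Fth1 encodes the heavy chain of ferritin, which oxidises and stores iron. It read 35674, 41494 and 37840 in WT and 33647, 32201 and 40121 in KO with TNFa, and 33151, 40872 and 36290 in WT and 39020.0, 36694 and 44159 in KO with CM. With TGFb it read 27194, 29696 and 28577 in WT and 23488, 23812 and 26874 in KO. The TGFb libraries were the low ones in both genotypes. Fth1 rose with TNFa relative to TGFb by 0.43 ± 0.10 in WT and by 0.51 ± 0.10 in KO (limma adjusted p = 0.0028 and 0.000232). With CM relative to TGFb it rose by 0.36 ± 0.10 in WT and by 0.69 ± 0.10 in KO (limma adjusted p = 0.0137 and 1.2e-05), the WT call being lost without TGFb WT 1 (0.072) or CM WT 2 (0.0793). In KO relative to WT, Fth1 passed with no treatment (-0.12, -0.21 and 0.12, each ± 0.10), though with TGFb the KO libraries lay below WT without overlap.

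**Figure D2:**
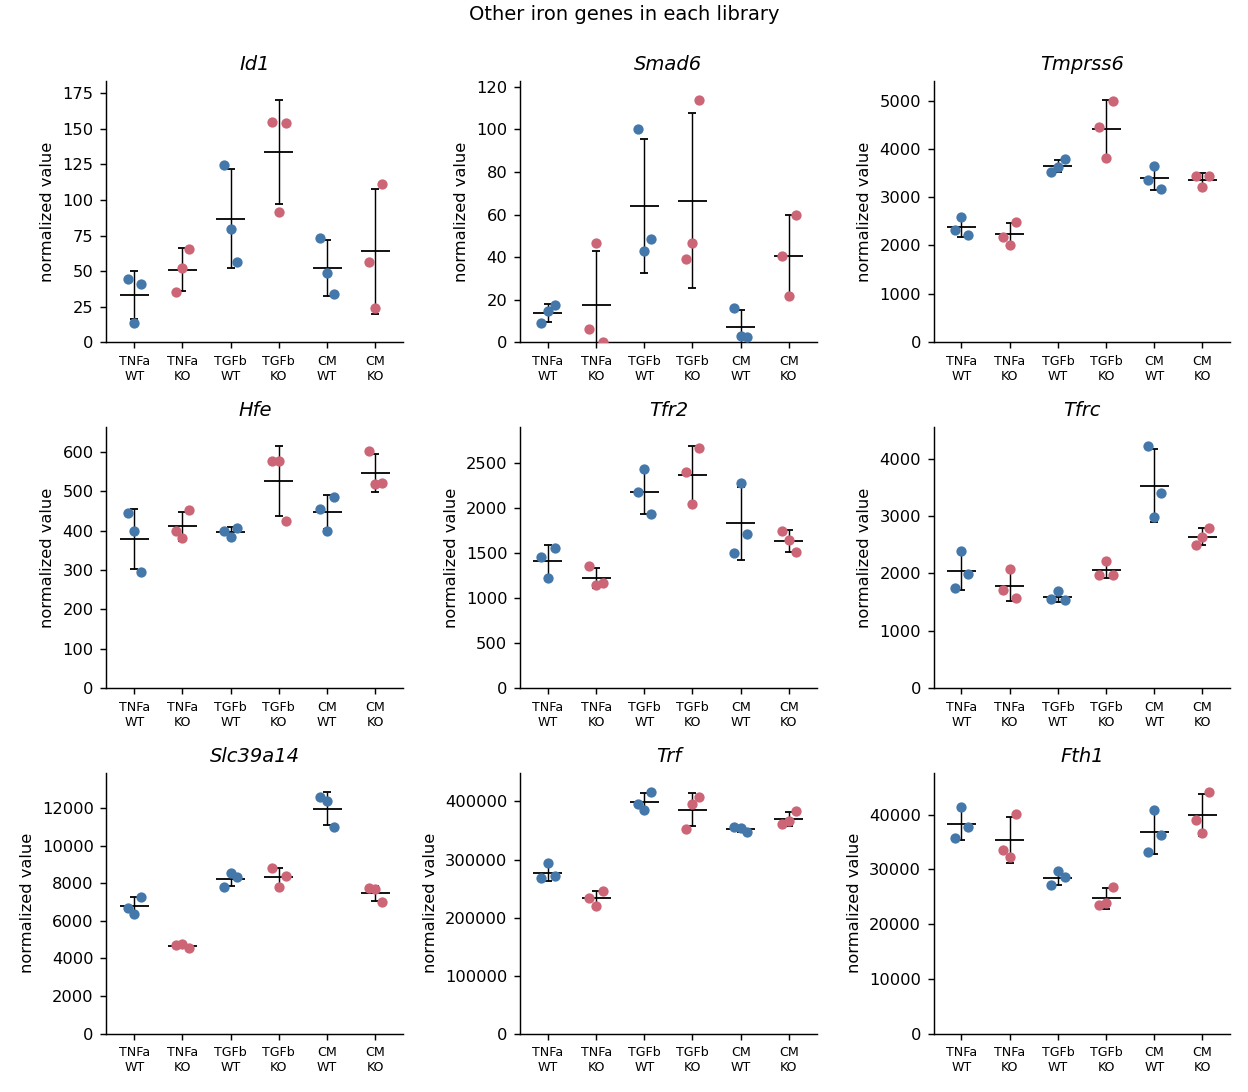
Deposited normalized values (linear axes from 0, a separate scale for each gene) of the other 9 members in the 18 libraries, by treatment and genotype (blue WT, red KO). Points are libraries, bars means and whiskers the SD of 3 libraries. Slc39a14 is lower in KO with TNFa and CM, Tfrc is highest in CM WT, and Id1 and Smad6 scatter most within groups.

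Counted over the members, the KO comparison called 2 of 10 with TNFa (Hamp higher, Slc39a14 lower), where 7.89% of all genes tested passed. With TGFb it called 2 (Hamp and Tfrc higher) against a background of 12.2%, and with CM 3 (Hamp higher, Slc39a14 and Tfrc lower) against 9.39%. Averaged over treatments it called Hamp and Slc39a14, against 20.7%. The median KO difference of the 10 members was -0.16 with TNFa, 0.19 with TGFb and 0.09 with CM, beside medians of 0.02, -0.01 and -0.01 over all genes tested. The called members lay on both sides of 0, and Hamp was the member called with each of the 3 treatments.

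**Figure D3:**
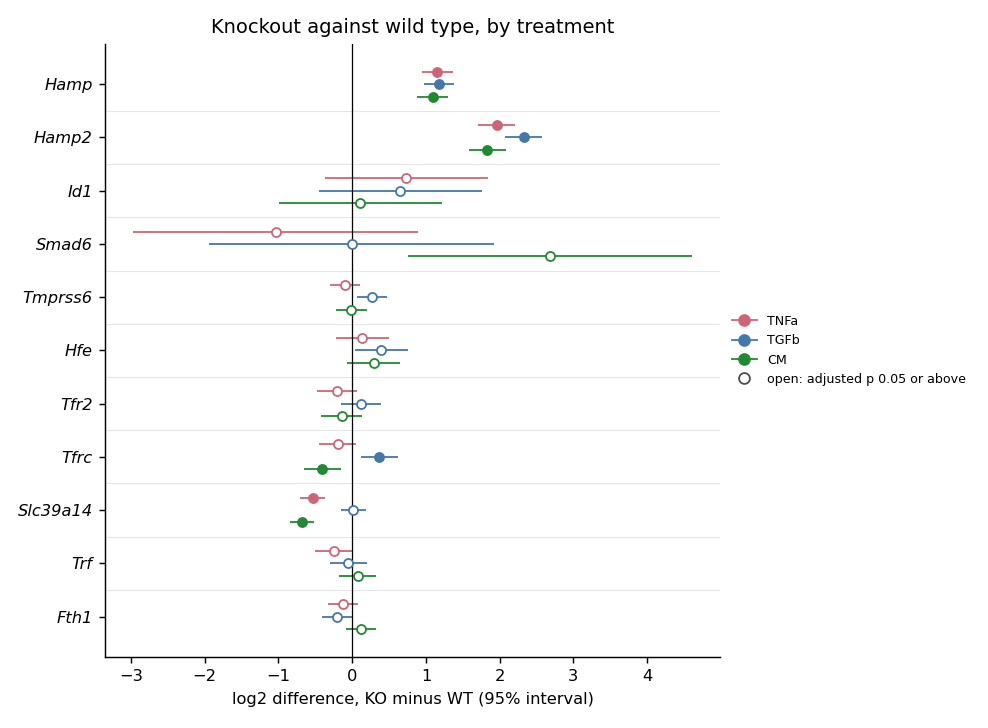
KO minus WT difference in log2(value + 1) for the 10 members and Hamp2 with each treatment (red TNFa, blue TGFb, green CM). Points are limma estimates from 3 KO and 3 WT libraries, lines their 95% intervals, and filled points passed at an adjusted p below 0.05. Hamp and Hamp2 lie to the right with all 3 treatments, Slc39a14 lies to the left with TNFa and CM, and the intervals of Id1 and Smad6 are the widest.

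Between TNFa and either other treatment, 4 to 7 of 10 members were called, where 12.3% to 22.4% of all genes were. The KO comparison within a treatment called 2 or 3 of 10, where 7.89% to 12.2% were. CM against TGFb called 4 in WT and 3 in KO, where 11.8% and 10.6% of all genes were called. Hamp fell with TNFa relative to TGFb by 1.27 ± 0.10 in WT and by 1.29 ± 0.10 in KO (limma adjusted p = 2.04e-10 and 5.04e-11), and rose with CM relative to TNFa by 1.27 ± 0.10 and 1.20 ± 0.10 (limma adjusted p = 4.5e-10 and 1.19e-09). Between CM and TGFb, Hamp differed by -0.01 ± 0.10 in WT, with an interval from -0.22 to 0.20, and by -0.09 ± 0.10 in KO, with an interval from -0.30 to 0.12. Hamp2 was also lower with TNFa than with TGFb, by a difference of -0.60 ± 0.12 in WT and -0.97 ± 0.12 in KO (limma adjusted p = 0.000657 and 3.17e-07). Between CM and TGFb, Hamp2 differed by 0.12 ± 0.12 in WT (limma adjusted p = 0.624) and fell in KO with a difference of -0.38 ± 0.12 (limma adjusted p = 0.0456). That KO call was lost without TGFb KO 1 (0.146), TGFb KO 3 (0.128), CM KO 1 (0.106) or CM KO 3 (0.204), and with no filter (0.0629), equal totals (0.141) or quantile normalization (0.0758).

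For TNFa against TGFb, 6 of 10 members passed in WT, where 13.4% of genes did, and 7 of 10 in KO, where 22.4% did. In both genotypes Hamp, Tmprss6, Tfr2, Trf and Slc39a14 were lower with TNFa and Fth1 was higher, and in KO Smad6 was lower too. The Slc39a14 difference in WT, -0.28 ± 0.08 (limma adjusted p = 0.0197), was lost without TNFa WT 1 (0.0646), TNFa WT 2 (0.104), TGFb WT 2 (0.0926) or TGFb WT 3 (0.0654), and with totals set equal (0.178) or quantile normalization (0.0552). Members' medians were -0.57 in WT and -0.89 in KO, beside -0.00 and 0.04 over all genes. Hepatocyte markers moved the same way: of 12, 8 were lower with TNFa in WT and 11 in KO, with sums of 1675280 to 1753318 against 2252438 to 2366242 in WT and of 1607080 to 1688608 against 3085907 to 3253542 in KO. Their part in the members' differences was not tested.

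For CM against TNFa, 4 of 10 members passed in WT (background 12.3%) and 6 of 10 in KO (background 12.7%), each higher with CM. Hamp, Tmprss6, Tfrc and Slc39a14 rose in both genotypes, and Tfr2 and Trf in KO. Of the 12 hepatocyte markers, 9 were higher with CM in WT and 12 in KO, and 0 were lower. Their sum in WT was 1999623 to 2087022 with CM against 1675280 to 1753318 with TNFa. In KO it was 2547883 to 2632908 against 1607080 to 1688608. The part of this shift in the members' differences was not tested. For CM against TGFb, 4 of 10 passed in WT (background 11.8%) and 3 of 10 in KO (background 10.6%). Fth1, Tfrc and Slc39a14 were higher with CM in WT and Smad6 was lower, and in KO Fth1 was higher and Tmprss6 and Tfr2 lower. These comparisons share libraries with each other, so they are not separate evidence.

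**Figure D4:**
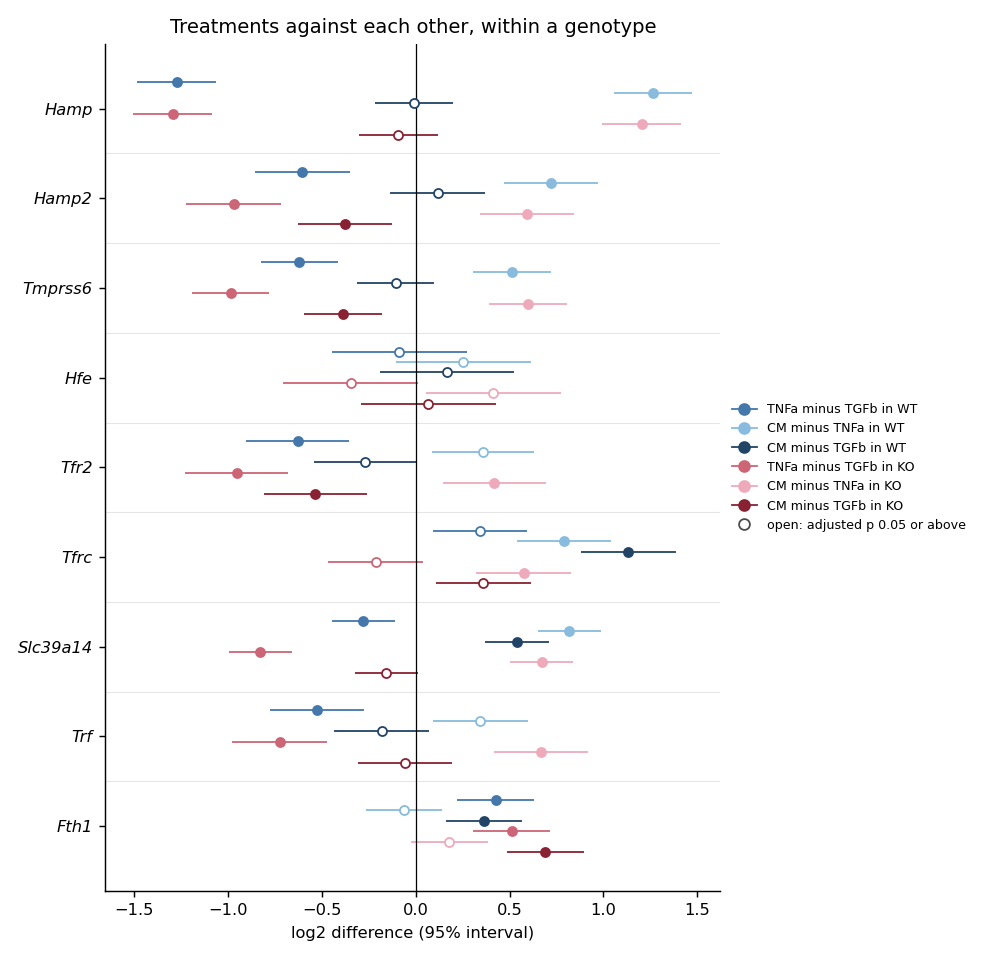
Differences in log2(value + 1) between treatments within WT (blue shades) and within KO (red shades) for Hamp2 and 8 members, without Id1 and Smad6. Points are limma estimates from groups of 3 libraries, lines 95% intervals, and filled points passed at an adjusted p below 0.05. TNFa minus TGFb lies to the left for Hamp, Tmprss6, Tfr2, Slc39a14 and Trf and to the right for Fth1.

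Other genes of the pathway were counted from lists, to be read against the 7.89%, 12.2% and 9.39% of all genes called in KO with TNFa, TGFb and CM. Among BMP target and feedback genes 11 were tested, and in KO 1 rose with TNFa, 2 with TGFb and 2 with CM, with 0, 0 and 1 lower. Id2, which like Id1 blocks helix-loop-helix factors, read 381 to 498 in WT and 679 to 974 in KO with TNFa, 407 to 503 and 813 to 905 with TGFb, and 559.9 to 840.0 and 881 to 1071 with CM. Id2 libraries did not overlap between genotypes, and it rose in KO by 0.84 ± 0.16, 0.89 ± 0.16 and 0.58 ± 0.16 (limma adjusted p = 0.000822, 0.000197 and 0.0197). The CM call of Id2 was lost without CM WT 1 (0.0773), CM WT 2 (0.132), CM KO 1 (0.0814) or CM KO 2 (0.092), and when only the groups compared were fitted (0.077). Id3 rose by 0.94 ± 0.14 with TGFb and 0.70 ± 0.14 with CM (limma adjusted p = 9.01e-06 and 0.000752), and with TNFa its difference was 0.30 ± 0.14 (limma adjusted p = 0.206). Smad7 rose on average over treatments, by 0.35 ± 0.10 (limma adjusted p = 0.0109). In that average 3 of the 11 genes of this list were higher and 1 lower, where 20.7% of all genes were called. Id2, Id3 and Smad7 are also read in endothelial and other non-parenchymal cells. Summed macrophage and endothelial markers were higher in KO with each treatment. Of 7 stellate and fibroblast markers tested, 0, 1 and 1 rose in KO with TNFa, TGFb and CM, and 0 fell. Of 7 cholangiocyte markers tested, 0 rose in KO with any treatment and 2 fell with TNFa. The part of such cells in these differences was not tested.

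Among BMP ligands and secreted modulators 20 were tested. In KO 0 were higher and 2 lower with TNFa, 3 and 0 with TGFb, and 1 and 1 with CM, shares near those of all genes. Averaged over treatments, 8 of the 20 were called, 3 higher and 5 lower, where 20.7% of all genes were called. The ligand Bmp6 was among the 3 higher with TGFb and among the 3 higher on average. Its group means with TGFb were 17.5 in WT and 58.8 in KO, and it did not pass with TNFa or CM. Inhba, an activin subunit, rose on average by 0.40 ± 0.07 (limma adjusted p = 6.96e-05). Erfe, the erythroid hormone that lowers hepcidin, fell on average by 1.12 ± 0.26 (limma adjusted p = 0.00167), at values of 26.3 to 159 in the 18 libraries. Fgl1, a liver-made protein that also restrains hepcidin, fell with TNFa by 0.39 ± 0.10 (limma adjusted p = 0.0142), a call lost without TNFa WT 1 (0.0553) or TNFa KO 1 (0.0835). Among 19 receptors, coreceptors and SMADs, KO comparisons called 1 higher and 1 lower with TNFa, 0 and 2 with TGFb, and 0 with CM. Tgfbr1, a TGF-beta receptor, fell in KO with TGFb by 0.87 ± 0.08 (limma adjusted p = 1.3e-09), and its KO effect differed between treatments (limma adjusted p = 0.00107).

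In the interleukin 6 and STAT3 arm 14 genes were tested, with 0 higher and 2 lower in KO with TNFa, 2 and 2 with TGFb, and 0 and 3 with CM. Lcn2, an iron-siderophore binding protein of the acute phase, fell by 0.68 ± 0.10, 0.55 ± 0.10 and 0.42 ± 0.10 (limma adjusted p = 2.19e-05, 0.000181 and 0.00523). Il6st, the signalling receptor chain for interleukin 6, fell with TGFb by 0.39 ± 0.10 and with CM by 0.48 ± 0.10 (limma adjusted p = 0.00899 and 0.00169), the TGFb call being lost without TGFb KO 1 (0.0867). The CM calls of Lcn2 and Il6st were lost when only the groups compared were fitted (limma adjusted p = 0.0915 and 0.0515). Fgg, a fibrinogen chain, rose with TGFb by 0.49 ± 0.10 (limma adjusted p = 0.000552).

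Among genes of iron import, reduction, storage and export 16 were tested, with 2 higher and 2 lower in KO with TNFa, 1 and 3 with TGFb, and 2 and 4 with CM. Cp, the plasma ferroxidase ceruloplasmin, read 18411 to 22935 in WT and 12614 to 14501 in KO with TNFa, 19082 to 21967 and 16264 to 16866 with TGFb, and 34811 to 37339 and 21976 to 23460 with CM. Genotypes did not overlap, and Cp fell by 0.56 ± 0.09, 0.31 ± 0.09 and 0.68 ± 0.09 (limma adjusted p = 5.31e-05, 0.0154 and 1.82e-06). The TGFb call of Cp was lost without TGFb WT 1 (0.0629), TGFb WT 2 (0.0943) or TGFb KO 1 (0.0568). Steap3, an endosomal ferrireductase, fell by 0.76 ± 0.19, 1.05 ± 0.19 and 0.91 ± 0.19 (limma adjusted p = 0.00796, 0.000136 and 0.00123). Slc40a1, the exporter ferroportin that hepcidin binds, rose in KO with TNFa by 0.90 ± 0.11 and with CM by 0.54 ± 0.11 (limma adjusted p = 9.72e-07 and 0.00116), and with TGFb its difference was -0.04 ± 0.11 (limma adjusted p = 0.871). Macrophages are known to express ferroportin strongly, their marker sum was higher in KO with each treatment, and its part in the Slc40a1 differences was not tested.

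Iron regulatory proteins and their controls gave 0 called genes of 9 in KO with TNFa, 1 with TGFb and 1 with CM. Of 27 genes of heme, haemoglobin and mitochondrial iron, 1 was higher and 1 lower in KO with TNFa, 1 and 1 with TGFb, and 3 and 1 with CM. Hmox1, which breaks down heme and frees its iron, rose by 0.37 ± 0.08 with TNFa and 0.71 ± 0.08 with CM (limma adjusted p = 0.00257 and 2.3e-07), and its difference with TGFb was 0.05 ± 0.08 (limma adjusted p = 0.777). The macrophage marker sum was higher in KO with each treatment, and the part of macrophages in the Hmox1 differences was not tested. Alad, an enzyme of heme synthesis, rose by 0.79 ± 0.14 with TGFb and 0.85 ± 0.14 with CM (limma adjusted p = 0.000211 and 0.000137). Hpx, the heme carrier hemopexin, rose with CM by 0.66 ± 0.11 (limma adjusted p = 9.66e-05). Erythroid markers summed to 91.6 to 242 per library, and Hba-a1 was at 0 in the 3 TNFa KO libraries and in TGFb KO 2, CM WT 1 and CM KO 2.

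**Figure D5:**
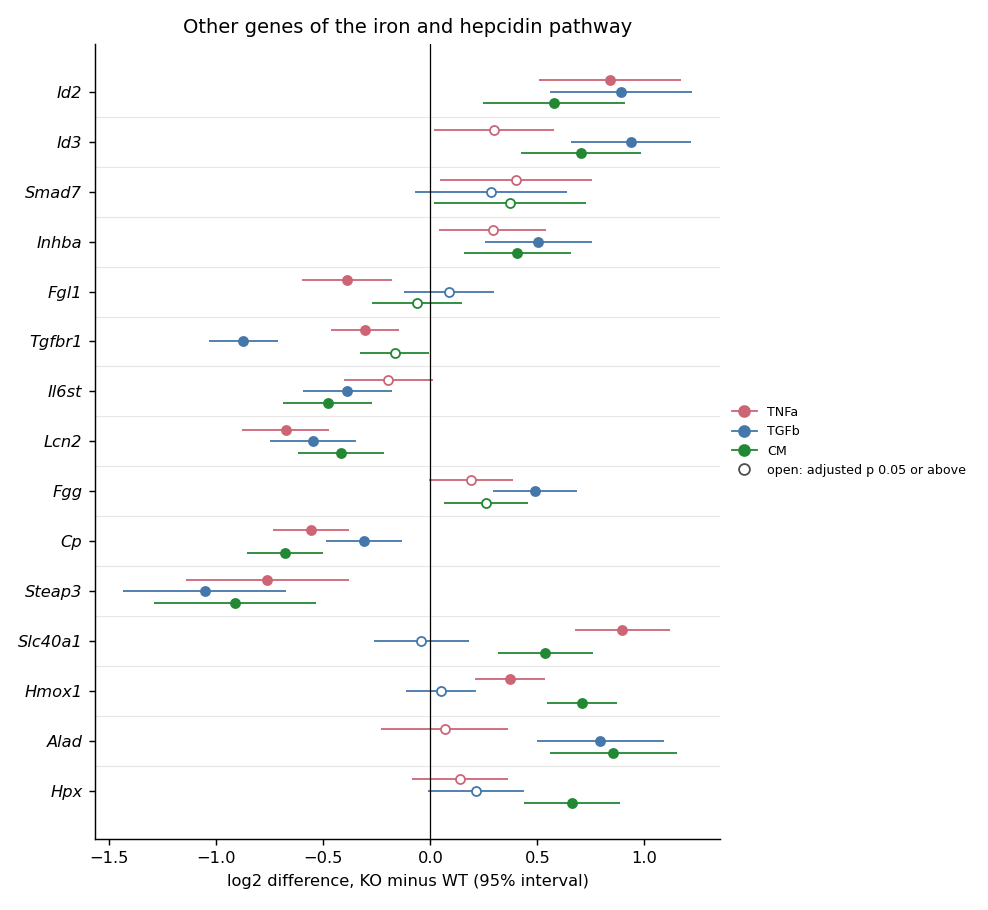
KO minus WT difference in log2(value + 1) for 15 further pathway genes with each treatment (red TNFa, blue TGFb, green CM). Points are limma estimates from 3 KO and 3 WT libraries, lines 95% intervals, and filled points passed at an adjusted p below 0.05. Id2 and Id3 lie to the right, Lcn2, Cp and Steap3 to the left, and Slc40a1 and Hmox1 lie near 0 with TGFb.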

How the data were processed

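RNA was measured in 18 libraries of mouse hepatocytes, 6 groups of 3. The authors deposited 1 normalized signal per protein-coding gene and library, on a linear scale; the submitters' processing notes list mm39, DESeq2, Partek and STAR 2.7.8a, with no roles. The smallest recurring step of a library (0.688 to 1.25) was read as 1 read, but only 80.2% to 84.0% of values up to 20 reads lay within 0.05 of a whole read, so reads were not recovered and no count model was fitted.

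After adding 1, values were log2 transformed. Genes that reached 10 in 3 or more libraries entered the test (14455, with all 10 members). A limma-trend model (limma 3.58.1, R 4.3.3) with 6 group means was fitted to all libraries (residual degrees of freedom 12, prior 17), and adjusted p-values below 0.05 were called. The p-values measure spread between libraries, since it is not stated whether a replicate number marks a mouse. Same-numbered libraries of a genotype did not deviate together (correlations from -0.0658 to 0.0543), so no block was used. The model was tested on simulated data with log2 changes of 1 or 0.5, up or down, placed in 200 genes of TNFa KO. The KO comparison with TNFa called 76 of them, 51 at 1 and 25 at 0.5, and 2 unchanged genes. With CM, where no change was placed, 0 genes were called. Many changes of this size were thus missed, so a gene that did not pass may still differ.

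Named were all members, Mtdh, Hamp2, up to 3 called genes per pathway list for KO and for treatment comparisons (mean value of at least 50, some left out), and the 5 genes nearest Hamp. Bmp6, defining markers, and values given beside a result, are further genes. The members and lists were chosen with earlier results of these data known. Not analysed here were Nog, Bmpr1b, Dlx2, Msx2, Ftmt, Hbb-bt and Slc4a1, which the lists also hold. Upstream windows (RefSeq, GRCm38.p6) were found for Hamp, Hamp2, Smad6, Hfe, Tfr2, Tfrc and Fth1, and hairpin sites come from GENCODE M21 transcripts; no coordinates were carried between builds. Python 3.11.15, pandas 2.3.3 and Biopython 1.88 handled tables and sequences. Alternatives were other pseudocounts, filters and scalings, fits of only the groups compared, replicate blocks and leaving out each library. Summing Hamp and Hamp2 was chosen after seeing the data, and the permutation of their ratio was not among the planned tests.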

Additional observations from a re-analysis of the deposited data

Results flagged for a closer look

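The KO effect differed between the 3 treatments, by a limma F-test over the differences of the effect, for 2 of the 10 members and 4 of the further pathway genes. For Slc39a14 the adjusted p was 0.00303, with KO differences of -0.53 with TNFa, 0.01 with TGFb and -0.68 with CM. For Tfrc it was 0.033, with -0.19, 0.36 and -0.41. For Tgfbr1 it was 0.00107, with -0.30, -0.87 and -0.17. For Slc40a1 it was 0.00351, with 0.90, -0.04 and 0.54. For Hmox1 it was 0.00521, with 0.37, 0.05 and 0.71. For Alad it was 0.0498, with 0.07, 0.79 and 0.85, a call lost under 19 other settings, among them the leaving out of any of 15 libraries, at adjusted p = 0.0532 to 0.137. Of all genes tested, 1.7% passed this test.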

How the results depend on the processing

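Of 2904 values of the members and Hamp2 under other settings, 2799 kept their side of the threshold, 79 lost the call and 26 gained one. Among them 0 called values and 53 uncalled values changed sign. The KO differences of Hamp stayed called in each of 17 settings per treatment, between 1.06 and 1.61 with TNFa, 1.07 and 1.73 with TGFb and 1.02 and 1.44 with CM, the upper values with Hamp2 added. Members called in KO with TGFb numbered 1, against 2, with a pseudocount of 0.5, no filter, quantile normalization and the replicate number as a replicate block, and 1 to 2 when a library was left out; Tfrc was the member lost. In CM against TGFb they numbered 2 to 4 in WT and 1 to 4 in KO when a library was left out, with 2 in WT without TGFb WT 1, 1 in KO without TGFb KO 3 and 4 without TGFb KO 2. Members whose KO effect differed between treatments numbered 1, against 2, with no filter and with equal totals, and 1 to 2 when a library was left out. Fits of only the groups compared called 719 genes, against 1141, in KO with TNFa, 795 against 1358 with CM, and 904 against 1774 for CM against TNFa in WT. Equal totals called 4875 against 3237 for TNFa against TGFb in KO and 2784 against 1835 for CM against TNFa in KO, with medians over all genes of 0.29 against 0.04 and -0.17 against -0.02. The F-test called 246 genes, 150 with no filter, and from 111 without TNFa WT 3 to 518 without CM WT 3. The differences of the KO effect called 62 (without TGFb KO 1) to 284 (without TGFb KO 2) against 159 for TGFb minus TNFa, 32 (without TNFa KO 1) to 348 (without CM WT 3) against 91 for CM minus TNFa, and 15 (without TGFb WT 3) to 238 (without CM WT 3) against 71 for CM minus TGFb. Replicate numbers did not pair the libraries, and 9 of 18 correlated best with their own number. With 3 libraries a group, Id1 and Smad6 are limited by low values.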
